A study of Mus musculus with 81 samples.

Results

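CD11bhigh cells of the embryonic liver and of the embryonic kidney were compared at embryonic day 14 (E14) in wild-type mice. The samples were chosen by their labels alone, 3 liver arrays and 3 kidney arrays of the 81 arrays of the study, and genes were read through probes with exactly 1 gene symbol, the brightest probe of each gene. The study profiled macrophage and progenitor populations sorted by FACS from wild-type and Irf8 knockout (Irf8KO) mice on Affymetrix arrays, at E8, E9.5 and E14 and in adults of 6 weeks. Embryos came from timed matings, and the RNA, taken up on PicoPure columns, was amplified with the Ovation PicoSL system and labelled with biotin. The same organ difference was read in 3 further pairs of groups that share no array with the first. These were Irf8KO CD11bhigh cells of liver and kidney at E14 (3 arrays each), the other sorted gate of wild-type E14 organs, Kupffer cells of the liver (3 arrays) and kidney F4/80high macrophages (2 arrays), and CD11bhigh cells of the liver and kidney of 6-week-old wild-type adults (3 arrays each). The CD11bhigh and F4/80high groups are labelled macrophages. Strain, sorting gates beyond these names and the number of embryos in a sample are unstated in the labels, nor do they say that replicates came from separate animals. The p-values therefore measure the spread between replicate samples, pooled over all groups of the study, which may be technical. The labels' protocols give collagenase for both organs and, for liver, dispase and DNase in addition, so the organ and its digestion cannot be told apart. The array titles of the wild-type liver and kidney groups follow different naming schemes, and no sort or array date is given, so a difference in handling cannot be told apart from the organ either.

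At E14 the liver is the main blood-forming organ of the mouse embryo, where progenitors give rise to red cells, granulocytes and monocytes between immature hepatocytes, whereas the kidney is being built by its epithelium and stroma and holds macrophages that entered it earlier. CD11b, the integrin alpha M encoded by Itgam, is carried by granulocytes, monocytes and macrophages alike, so a gate on it can hold different myeloid cells in different organs. Neutrophil precursors make the proteins of their granules in waves, first those of the primary granules, such as myeloperoxidase and elastase, then those of the secondary granules, such as lactoferrin. Macrophages respond to microbial products, to damage and to tissue digestion with the fast transcription of immediate early genes and of cytokine genes under the control of NF-kB.

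Of 22180 genes with a probe, 17099 passed the filter on low values and were tested, a signal above 3.041 on the log2 scale in at least 2 of the 81 arrays. Array medians of the 6 arrays lay between 2.97 and 3.04. Within the groups, arrays correlated at 0.987 to 0.988 in liver and 0.973 to 0.976 in kidney, and liver with kidney arrays at 0.914 to 0.934. The median SD over genes was 0.168 in liver and 0.225 in kidney. Kidney replicate 3 stood apart: in 24 genes it lay over 2 log2 units below the mean of the other kidney arrays, which were within 1 unit of each other, and genes of neutrophil granules were among them. The titles of the other wild-type kidney arrays end in a suffix that its title lacks, and the labels do not explain that suffix. Of the 170 genes recomputed without kidney replicate 3, those described below whose call ended or whose called difference moved by over 1.5 times are given both ways. All values below are log2 array signals or differences of them, liver minus kidney, with the standard error of the limma fit over all groups and a p-value adjusted over all tested genes.

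The gate gene Itgam read 8.64, 8.87 and 8.74 in the liver arrays and 8.53, 8.50 and 8.47 in the kidney arrays, a difference of 0.25 ± 0.25 (limma, adjusted p = 0.537). Irf8, a transcription factor of monocyte and macrophage development, read 8.67, 8.88 and 8.67 in liver and 8.98, 8.75 and 8.96 in kidney (-0.16 ± 0.25, adjusted p = 0.722). The groups overlapped for Irf8 and lay close together for Itgam. Adgre1, which encodes the macrophage antigen F4/80, read 7.18, 6.89 and 6.62 in liver and 9.06, 9.06 and 9.04 in kidney (-2.16 ± 0.26, adjusted p = 1.28e-09). The macrophage label was set against its defining markers over the 27 groups of the study. In liver CD11bhigh cells the 29 tested resident macrophage genes had a mean level that ranked 22 of 27, and Mrc1, C1qa, C1qb and C1qc ranked 26, 23, 20 and 22. The same cells ranked 1 of 27 for primary granule genes, and Mpo was higher there than in any other group. The liver cells therefore carried neutrophil precursor transcripts at the top of the study's range and macrophage transcripts near its bottom, which goes against their label of macrophages. Kidney CD11bhigh cells ranked 12 of 27 for resident macrophage genes and 8 of 27 for primary granule genes. In bulk samples, fewer cells of a type and less RNA per cell cannot be told apart.

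The limma test called 3897 of the 17099 genes at an adjusted p under 0.05, which is 22.8%. Of these, 2087 were higher in liver (12.2% of all) and 1810 higher in kidney (10.6%). After quantile normalization over all arrays, 43.4% of 3544 calls were higher in liver, against 53.6% without it, so the balance of the 2 directions depended on the scaling. The liver and kidney arrays did not overlap in 7416 genes (43.4%), called or not, so groups that stood apart were common among all genes. In 3804 genes (22.2%) the call came with groups that did not overlap. Differences over 2 log2 units were called in 184 genes toward liver (1.08%) and 289 toward kidney (1.69%). Without adjustment, 5573 genes had a p under 0.05 (32.6%). The median difference of all genes was -0.002.

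The largest differences toward kidney were in genes of inflammation and stress. In order of size they were Hspa1b (-7.92 ± 0.52), Cxcl2 (-7.69 ± 0.34), Hspa1a (-7.04 ± 0.43), Ifnb1 (-6.91 ± 0.74), Il1b (-6.78 ± 0.30), Cxcl1 (-6.66 ± 0.63), Cxcl10 (-6.64 ± 0.50), Egr1 (-6.63 ± 0.34), Ptgs2 (-6.46 ± 0.31), Ccl2 (-6.38 ± 0.46), Ccl4 (-6.20 ± 0.38) and Tnfsf9 (-5.75 ± 0.40). Toward liver they were in genes of hepatocytes, neutrophil granules and red cells, namely Alb (6.03 ± 0.42), Ltf (5.80 ± 0.65), Afp (5.59 ± 0.52), Ngp (5.46 ± 0.84), Lcn2 (5.07 ± 0.65), Csta3 (4.87 ± 0.84), Chil3 (4.86 ± 0.69), Wfdc21 (4.75 ± 0.58), Fcnb (4.73 ± 0.66), Chil1 (4.60 ± 0.46), Slc4a1 (4.47 ± 0.38) and Ctsg (4.45 ± 0.72). Without kidney replicate 3 the differences of all 12 remained called, but those of Csta3 (3.17) and Ctsg (2.65) were over 1.5 times smaller, so the order rests in part on that array. These 24 genes were taken from called genes whose liver and kidney arrays did not overlap. The low side of several lay under 3.041, below the median of the value table.

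**Figure D1:**
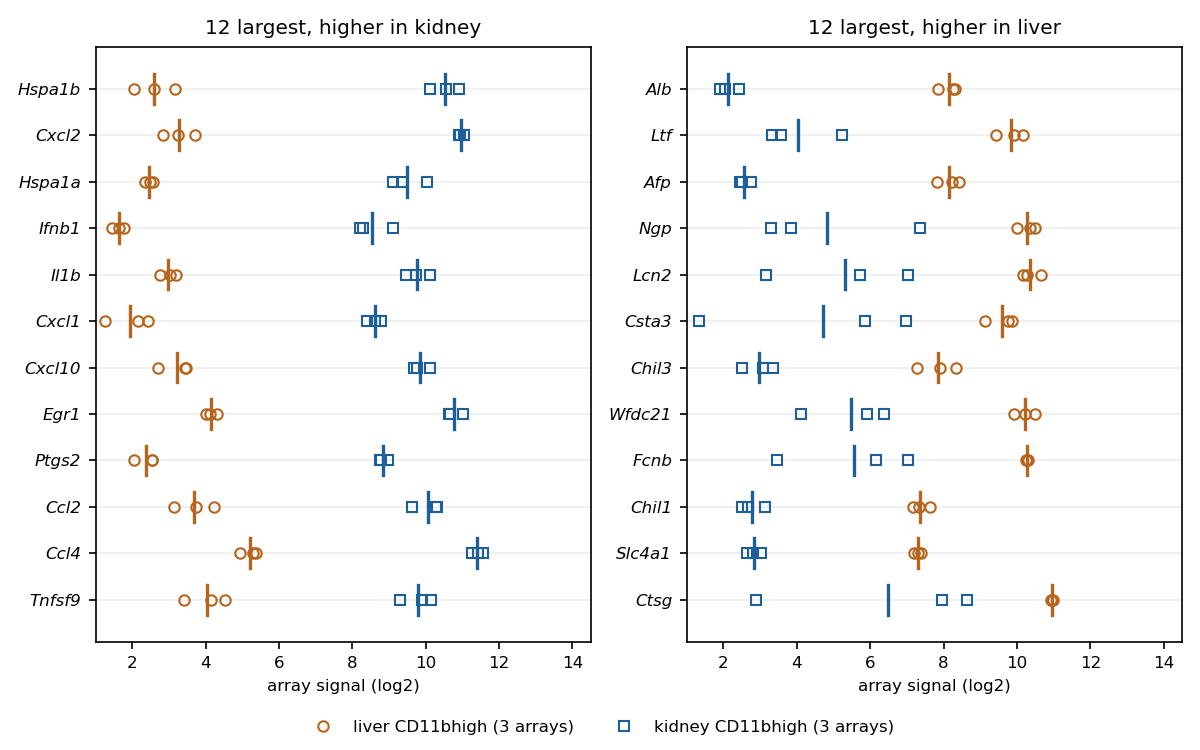
Array signal (log2) of the 12 genes with the largest differences toward kidney (left) and toward liver (right); circles are the 3 liver arrays, squares the 3 kidney arrays and bars the group means. The kidney arrays lie close together for Cxcl2 (10.90 to 11.05) and apart for Ctsg, where kidney replicate 3 reads 2.89 against 8.64 and 7.96.

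Inflammatory cytokine genes were the list with the lowest median. Of 20 tested, 17 were higher in kidney, 0 in liver and 3 did not pass, with a median difference of -4.01, beside 10.6% of all genes higher in kidney and a median of -0.002 over all genes, and the kidney cells had the highest mean level of this list among the 27 groups. Il1b, the main secreted form of interleukin-1, read 3.18, 3.02 and 2.75 in liver and 10.11, 9.73 and 9.46 in kidney (adjusted p = 6.39e-28). Tnf, a master cytokine of acute inflammation, read 6.49, 6.09 and 6.74 against 11.28, 11.07 and 11.42 (-4.82 ± 0.29, adjusted p = 1.03e-21). The kidney arrays were high in both genes and the groups were far apart. Il6 (-4.57 ± 0.60), which drives the acute-phase response, Il1a (-5.41 ± 0.57) and the anti-inflammatory Il10 (-5.12 ± 0.53) were higher in kidney as well. Ptgs2, the inducible cyclooxygenase, read 2.54, 2.55 and 2.04 in liver and 8.96, 8.76 and 8.79 in kidney. Genes that feed back on NF-kB moved in the same direction: Tnfaip3, an enzyme that ends the signal, by -5.48 ± 0.28, Nfkbiz by -4.95 ± 0.23 and the inhibitor Nfkbia by -2.78. Nlrp3, the sensor of an inflammasome, read 5.11, 4.94 and 4.75 against 9.22, 8.59 and 9.41 (-4.14 ± 0.27). Il12b (-0.36), Tgfb1 (-0.26) and Csf1 (-0.14) did not pass the test. Without kidney replicate 3 the count was 17 and the median -3.97.

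Chemokine ligands, the secreted proteins that attract leukocytes, were higher in kidney in 15 of 24 tested, 0 in liver, with a median of -2.30. The share toward kidney was 62.5%, beside 10.6% of all genes. Cxcl2 and Cxcl1 attract neutrophils through the receptor Cxcr2. Cxcl2 read 2.85, 3.72 and 3.24 in liver and 10.90, 11.05 and 10.94 in kidney, and Cxcl1 read 2.15, 1.27 and 2.43 against 8.79, 8.39 and 8.63. Cxcr2 itself was higher in liver, at 7.78, 7.73 and 8.31 against 5.48, 5.26 and 4.78 (2.76 ± 0.41, adjusted p = 2.51e-07). The ligands were high in the cells in which the receptor was low. The groups did not overlap in any of the 3 genes, as in 43.4% of all genes. Among the ligands of monocytes and T cells, Ccl2 read 4.22, 3.73 and 3.13 in liver and 10.27, 9.63 and 10.32 in kidney, and Ccl3 read 7.67, 7.12 and 7.45 against 11.01, 10.93 and 11.20. Ccl24, an attractant of eosinophils, read 3.42, 2.94 and 3.25 against 8.22, 8.24 and 8.36 (-5.07 ± 0.47). Ccl9 (-0.64), Cxcl12 (-0.42) and Cxcl13 (-0.14) did not pass.

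Promoter windows, the 250 bases before an annotated start in RefSeq on build GRCm38.p6, were matched by symbol for 13208 of the 17099 tested genes. They were searched on both strands for 6 short motifs. A gene with several annotated starts can have several windows and was counted once if any of them held the letters. The shares below therefore also depend on the number of starts, which was not adjusted for. The windows shown hold a match and were picked for it. The chemokine pair is shown because its members had some of the largest differences and lie close together on chromosome 5, Cxcl1 at chr5:90890995-90891244 and Cxcl2 at chr5:90903649-90903898, both on the plus strand. Capitals mark NF-kB matches, GGGA and CC with any 4 bases between them, which overlap each other where the run of capitals is longer than the motif.
Cxcl1: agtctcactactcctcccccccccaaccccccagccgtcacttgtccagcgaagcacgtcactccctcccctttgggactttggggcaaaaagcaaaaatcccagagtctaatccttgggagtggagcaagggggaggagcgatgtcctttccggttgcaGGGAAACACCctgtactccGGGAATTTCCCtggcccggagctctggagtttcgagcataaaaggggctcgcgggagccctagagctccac
Cxcl2: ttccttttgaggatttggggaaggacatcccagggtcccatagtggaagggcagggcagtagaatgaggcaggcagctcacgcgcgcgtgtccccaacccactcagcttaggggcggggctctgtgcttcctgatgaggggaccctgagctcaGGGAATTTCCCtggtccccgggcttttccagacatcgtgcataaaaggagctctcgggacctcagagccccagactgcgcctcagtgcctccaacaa
The NF-kB letters were found in 5 of 9 chemokine ligand genes higher in kidney that have a window (55.6%), in 7 of 13 inflammatory cytokine genes (53.8%) and in 24.7% of all tested genes with a window. They were also found in 40.0% of primary and 33.3% of secondary granule genes higher in liver that have a window. Immediate early and heat shock genes higher in kidney, described below, held them in 43.8%. A match describes the letters and is no evidence that a factor binds there.

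The immediate early and heat shock list was the one with the largest share called, 19 of 21 higher in kidney and 0 in liver. The share was 90.5%, beside 10.6% of all genes, and the median was -3.30. The mean level of the list was 5.57, 5.53 and 5.43 in the liver arrays and 8.99, 9.15 and 9.07 in the kidney arrays. Egr1, a transcription factor switched on within minutes of a stimulus, read 4.30, 4.02 and 4.12 in liver and 10.64, 10.66 and 11.02 in kidney (adjusted p = 7.13e-25). Jun, a subunit of AP-1, read 4.69, 4.67 and 4.81 against 9.57, 10.23 and 10.13 (-5.25 ± 0.26), and Fos read 5.24, 5.25 and 4.74 against 8.46, 8.14 and 8.12 (-3.17 ± 0.29). The orphan nuclear receptor Nr4a1 read 5.11, 4.90 and 4.97 against 10.53, 10.85 and 10.39 (-5.60 ± 0.27). All 3 kidney arrays were high in each of these genes and all 3 liver arrays low. Hspa1b, an inducible Hsp70 chaperone, read 2.58, 3.16 and 2.06 in liver and 10.11, 10.90 and 10.54 in kidney. Hspa1a read 2.47, 2.34 and 2.56 against 9.12, 10.03 and 9.35. These neighbouring genes are near-identical copies, so their probes may read each other's transcripts and the values are not independent. The members that did not pass were Hspa8, a constitutive Hsp70 chaperone (-0.16 ± 0.10, adjusted p = 0.241), and Hsp90aa1, which encodes Hsp90 alpha (-0.40 ± 0.16, adjusted p = 0.0654). Genes of this kind are known to rise during tissue digestion, and the digestion differed between the organs as the protocols describe, so the organ and its digestion cannot be told apart here.

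The Hsp70 promoters are shown because this pair had differences among the 3 largest toward kidney, Hspa1a at chr17:34972157-34972406 and Hspa1b at chr17:34959239-34959488, both on the minus strand. The windows were identical at 247 of 250 bases (98.8%). Capitals mark the heat shock element GAANNTTC, which begins 104 bases before the annotated start in both.
Hspa1a: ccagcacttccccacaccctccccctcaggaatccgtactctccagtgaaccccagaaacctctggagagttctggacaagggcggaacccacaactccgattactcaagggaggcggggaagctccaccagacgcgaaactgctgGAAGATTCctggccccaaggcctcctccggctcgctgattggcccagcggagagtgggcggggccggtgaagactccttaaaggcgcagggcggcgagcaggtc
Hspa1b: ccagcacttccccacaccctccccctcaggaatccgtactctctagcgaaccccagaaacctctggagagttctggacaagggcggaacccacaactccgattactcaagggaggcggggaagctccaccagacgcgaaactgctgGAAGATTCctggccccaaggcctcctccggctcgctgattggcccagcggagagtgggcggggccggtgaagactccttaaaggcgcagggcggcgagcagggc
These letters were found in 3 of the 16 immediate early and heat shock genes higher in kidney that have a window (18.8%) and in 6.49% of all tested genes with a window. Hspa1a and Hspa1b are among those 3, and their near-identical windows are not independent, so the share rests on fewer separate sequences.

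Resident macrophage genes were higher in kidney or did not pass. Of 29 tested, 19 were higher in kidney (65.5%, beside 10.6% of all genes), 0 in liver and 10 did not pass. The median was -1.31. The mannose receptor Mrc1 read 3.58, 2.85 and 3.51 in liver and 9.05, 8.79 and 8.98 in kidney (-5.62 ± 0.38, adjusted p = 4.18e-19). The complement C1q chains, which tag dying cells and synapses for uptake, read in the case of C1qb 5.67, 5.38 and 5.70 against 10.02, 10.09 and 9.97 (-4.44 ± 0.46), with C1qa at -3.82 ± 0.31 and C1qc at -3.83 ± 0.39. Kidney arrays were above every liver array in all 3 chains. The scavenger receptor Stab1 (-4.10 ± 0.30), the receptor kinase Mertk (-3.07 ± 0.33), which takes up dying cells, and the transcription factor Maf (-3.51 ± 0.37) were higher in kidney too. Csf1r, the receptor on which most macrophages depend for survival, differed less: 8.71, 8.41 and 8.38 against 9.80, 9.74 and 9.79 (-1.28 ± 0.18, adjusted p = 4.54e-08). Cx3cr1, the fractalkine receptor, read 7.74, 7.96 and 7.41 against 10.21, 10.38 and 10.20 (-2.56 ± 0.50). Markers of mature tissue macrophages such as Cd163 (-0.08) and Vsig4 (-0.39) did not pass and were below 3.041 in every array of both groups. Of 16 complement genes, 6 were higher in kidney (37.5%). They were the C1q chains, the anaphylatoxin receptors C3ar1 (-3.78 ± 0.38) and C5ar1 (-0.92), and properdin, Cfp (-0.64 ± 0.22). The call of Cfp was lost when any 1 of 4 arrays was left out (adjusted p 0.063 to 0.090).

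Receptors for chemoattractants and growth factors were called in both directions. Of 16 chemoattractant receptors, 6 were higher in kidney (37.5%, beside 10.6% of all genes). Toward liver 2 were called (12.5%), close to the 12.2% of all genes. Ccrl2, an atypical receptor that presents chemerin, read 3.48, 3.77 and 3.80 in liver and 9.18, 9.05 and 9.12 in kidney (-5.43 ± 0.30), and the signalling chemerin receptor Cmklr1 differed by -2.23 ± 0.25. Cxcr2 and the leukotriene B4 receptor Ltb4r1 (2.58 ± 0.34), both of neutrophils, were the members higher in liver. Ccr2, which brings monocytes into tissue, read 8.39, 8.40 and 8.43 against 8.72, 8.82 and 8.93 and did not pass (-0.42 ± 0.32, adjusted p = 0.408), though it was called toward kidney with the 6 arrays fitted alone (adjusted p = 0.00361). Of 25 growth factor and cytokine receptors, 9 were higher in kidney (36.0%), among them Csf1r, Il10ra (-1.77 ± 0.22) and Tgfbr2 (-1.61 ± 0.18). Toward liver 6 were called (24.0%), among them Flt3 (2.38 ± 0.34), Kit (2.36 ± 0.31) and the G-CSF receptor Csf3r (0.75 ± 0.25). The count toward liver was 3 without liver replicate 1 and 3 without kidney replicate 3.

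Sensors of microbes were higher in kidney in 16 of 30 tested and higher in liver in 1, with a median of -0.87. The shares were 53.3% and 3.33%, beside 10.6% and 12.2% of all genes. Tlr7, a sensor of single-stranded RNA, read 5.45, 4.94 and 5.47 in liver and 7.95, 7.60 and 7.46 in kidney (-2.38 ± 0.21), and Tlr2, a sensor of bacterial lipoproteins, 6.01, 5.93 and 5.96 against 8.10, 7.91 and 8.03 (-2.04 ± 0.20). Clec4e, a receptor of mycobacterial glycolipid and of dead cells, read 3.91, 3.99 and 4.61 against 9.05, 7.89 and 8.49 (-4.31 ± 0.44). Groups were apart in all of these. Tlr4, the receptor of endotoxin, read 5.73, 6.00 and 5.82 against 6.21, 6.06 and 5.73 and overlapped (-0.15 ± 0.25, adjusted p = 0.747), whereas its partners Cd14 (-2.50 ± 0.28) and Ly96 (-2.17) were higher in kidney. Clec5a (2.31) was the member higher in liver.

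Interferon-stimulated genes were higher in kidney in 15 of 28 tested and in liver in 0, with a median of -0.88. The share toward kidney was 53.6%, beside 10.6% of all genes. Ifnb1, the gene of interferon beta, read 1.46, 1.65 and 1.77 in liver and 8.28, 8.20 and 9.12 in kidney. Among its targets, Isg15 read 5.48, 4.92 and 5.03 against 7.15, 6.68 and 7.35 (-1.92 ± 0.34), and Rtp4 read 6.25, 6.08 and 5.89 against 7.72, 7.37 and 7.85 (-1.57 ± 0.26). Oasl1 (-2.39 ± 0.34) and Ifih1 (-1.43 ± 0.26), the RNA sensor MDA5, were called too, while Mx1 (-0.29), Usp18 (-0.50) and Rsad2 (-0.91) did not pass. Of the list, only Cxcl10, a chemokine that NF-kB also drives, had a difference close to that of Ifnb1.

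Genes of the lysosome and of phagocytosis were higher in kidney in 18 of 26 and higher in liver in 1, with a median of -0.63. The shares were 69.2% and 3.85%, beside 10.6% and 12.2% of all genes. Lgmn, an endosomal protease, read 6.57, 6.51 and 5.90 in liver and 9.84, 9.83 and 9.81 in kidney (-3.50 ± 0.25, adjusted p = 2.85e-18). The cathepsins Ctsl (-1.64 ± 0.18), Ctsb (-0.96 ± 0.16) and Ctsd (-0.62 ± 0.13) differed less, and the tetraspanin Cd63 (1.18) was the member higher in liver. Of 21 iron and haem genes, 7 were higher in kidney (33.3%). Hmox1, which breaks down haem, read 8.02, 7.65 and 7.71 against 9.94, 9.80 and 10.02 (-2.13 ± 0.26). The iron transporter Slc11a1 differed by -2.58 ± 0.25, and Spic, a factor of iron-recycling macrophages, by -2.69 ± 0.36. Lcn2, a siderophore-binding protein of neutrophil granules, was the 1 member higher in liver (4.76%). Of 21 lipid genes, 10 were higher in kidney (47.6%). Among them were lipoprotein lipase Lpl (-2.68 ± 0.31), the fatty acid receptor Cd36 (-2.78 ± 0.38) and the cholesterol exporter Abca1 (-1.87 ± 0.29). The other exporter, Abcg1 (1.03 ± 0.25), and Fdps of the sterol pathway (1.66 ± 0.23) were among the 3 higher in liver. Those 3 made up 14.3%, close to the 12.2% of all genes.

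Myeloid transcription factors were called in both directions, 12 of 30 higher in kidney and 6 in liver. The shares were 40.0% toward kidney, beside 10.6% of all genes, and 20.0% toward liver, beside 12.2%. Spi1 (PU.1), needed by all myeloid cells, read 8.86, 8.96 and 9.10 in liver and 8.98, 8.83 and 8.95 in kidney and overlapped (0.05 ± 0.15, adjusted p = 0.858). Cebpe, which drives the secondary granule programme of neutrophils, read 9.22, 9.45 and 9.51 against 6.10, 6.27 and 4.63 (3.73 ± 0.41, adjusted p = 3.92e-11). Gfi1, a repressor that favours neutrophils over monocytes, read 5.98, 6.43 and 6.10 against 3.98, 4.30 and 3.41 (2.27 ± 0.24). Every liver array was above every kidney array in both granulocyte factors. Maf, Klf6 (-2.03 ± 0.21), Ets2 (-2.60 ± 0.20) and Cebpb (-0.66 ± 0.18) were higher in kidney. Cebpa (0.34), Irf4 (-0.12) and Klf4 (0.48) did not pass.

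Neutrophil granule genes gave the largest group difference toward liver. Of 14 primary granule and early neutrophil genes, 12 were higher in liver and 0 in kidney, with a median of 2.77, beside 12.2% of all genes higher in liver. Elane, neutrophil elastase, read 10.96, 10.84 and 10.99 in liver and 8.09, 8.27 and 3.42 in kidney (4.33 ± 0.76, adjusted p = 8.57e-06). Ctsg, cathepsin G, read 10.95, 10.93 and 10.97 against 8.64, 7.96 and 2.89. Mpo, myeloperoxidase, read 11.71, 11.64 and 11.65 against 10.27, 10.42 and 7.54 (2.25 ± 0.79, adjusted p = 0.0306). The liver arrays lay close together in these genes, and kidney replicate 3 was far below the other kidney arrays. Without it, Elane gave 2.75 and Ctsg 2.65, both still called, Mpo gave 1.32 with an adjusted p of 0.33, and 11 of the 14 members were called with a median of 2.19. The call of Mpo was also lost without any 1 of the liver arrays (adjusted p 0.0679 to 0.0738) and with only the E14 groups fitted (adjusted p = 0.0714).

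Of 24 secondary granule and late neutrophil genes, 18 were higher in liver and 0 in kidney, with a median of 2.52. Ltf, lactoferrin, read 9.44, 10.16 and 9.91 in liver and 5.22, 3.56 and 3.33 in kidney (adjusted p = 1.08e-10). Ngp, neutrophilic granule protein, read 10.01, 10.49 and 10.35 against 7.35, 3.83 and 3.30, and Camp, the cathelicidin, read 10.89, 10.89 and 10.93 against 9.58, 8.55 and 4.46 (3.37 ± 0.99, adjusted p = 0.00799). Kidney arrays ranged over several log2 units in Ngp and Camp, and no kidney array reached a liver array in these genes. Without kidney replicate 3, 14 of the 24 were called with a median of 1.94, and Camp gave 1.84 with an adjusted p of 0.237. The calprotectin genes of neutrophils and monocytes did not pass: S100a8 read 11.54, 11.41 and 11.38 against 11.23, 11.08 and 9.36 (0.89 ± 1.14, adjusted p = 0.655; 0.29 without kidney replicate 3) and S100a9 differed by 1.83 ± 0.96. With the 6 arrays fitted alone S100a9 was called (adjusted p = 0.00151). Mmp9 (-0.04), of the last granules to form, and Retnlg (-1.41) did not pass either.

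Promoters of Ltf (chr9:111019042-111019291) and Ngp (chr9:110419558-110419807), both on the plus strand of chromosome 9 and among the 4 largest differences toward liver, are shown because C/EBP factors such as Cebpe are known regulators of secondary granule genes. Capitals mark the C/EBP match TTGCNNAA on either strand.
Ltf: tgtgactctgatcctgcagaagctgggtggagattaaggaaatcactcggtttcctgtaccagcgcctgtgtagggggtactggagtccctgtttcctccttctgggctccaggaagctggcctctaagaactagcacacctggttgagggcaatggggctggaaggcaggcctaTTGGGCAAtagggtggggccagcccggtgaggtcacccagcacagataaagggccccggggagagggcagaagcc
Ngp: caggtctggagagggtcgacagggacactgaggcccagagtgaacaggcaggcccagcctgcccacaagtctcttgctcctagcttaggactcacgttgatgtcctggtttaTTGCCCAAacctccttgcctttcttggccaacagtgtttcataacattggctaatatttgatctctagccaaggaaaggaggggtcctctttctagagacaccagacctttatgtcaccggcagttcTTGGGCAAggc
These letters were found in 6 of 18 secondary granule genes higher in liver (33.3%), in 2 of 10 primary granule genes higher in liver that have a window (20.0%) and in 9.91% of all tested genes with a window. The PU.1 core GGAAGT was found in 60.0% of those primary granule genes and 25.1% of all, and the AP-1 letters TGANTCA in 0 of them and 6.47% of all. The secondary granule genes gave 38.9% for PU.1 and 5.56% for AP-1. Genes higher in kidney with a window held PU.1 and C/EBP letters too. PU.1 letters were in 66.7% of chemokine ligands, 30.8% of cytokine genes and 31.2% of immediate early and heat shock genes. In the same order, C/EBP letters were in 11.1%, 23.1% and 6.25%, and AP-1 letters in 11.1%, 38.5% and 0.0%. The CArG box, CC and GG with 6 A or T bases between them, was in 12.5% of the immediate early and heat shock genes. It was in 1.43% of all and 0.0% of each other list searched.

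Monocyte genes were split, 8 of 19 higher in liver (42.1%, beside 12.2% of all genes) and 4 in kidney (21.1%, beside 10.6%). The median was 0.41. The smallest adjusted p toward liver were those of Cd177 (4.15 ± 0.56) and Hp (3.18 ± 0.51). Both read higher in liver arrays labelled Irf8KO (means 9.55 and 11.06) than in wild-type liver (7.26 and 10.54), as did the secondary granule list (9.45 and 7.94). The count toward liver may thus partly repeat the granule result, which was not tested. Ly6c2, the surface marker of classical monocytes that is also carried by granulocyte precursors, read 10.91, 10.86 and 10.74 in liver and 8.31, 6.97 and 6.94 in kidney (3.43 ± 0.68, adjusted p = 7.61e-05). F13a1, coagulation factor XIII of monocytes, read 8.98, 8.83 and 8.67 against 9.18, 9.37 and 9.31 and did not pass (-0.46 ± 0.46, adjusted p = 0.545), though it was called with the 6 arrays fitted alone (adjusted p = 0.0033). Cd14 and Nr4a1 were among the members higher in kidney and belong to the sensor and immediate early lists as well. Leaving out liver replicate 3 or kidney replicate 2 left 5 members higher in liver, and leaving out liver replicate 2 or kidney replicate 1 left 2 higher in kidney.

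Progenitor genes were higher in liver in 11 of 18 tested (61.1%, beside 12.2% of all genes). In kidney 0 were higher, and the median was 1.03. Myb, needed for definitive blood formation, read 9.26, 9.10 and 9.06 in liver and 6.94, 6.53 and 6.09 in kidney (2.62 ± 0.34, adjusted p = 6.18e-09), and Kit, the stem cell factor receptor, read 7.53, 7.77 and 7.16 against 5.03, 5.34 and 5.02. Erg (3.09 ± 0.34) and Hlf (1.88 ± 0.34), factors of stem and progenitor cells, were called too, while Meis1 (-0.30) and Mecom (-0.03) did not pass. Cell cycle genes were called in 9 of 28 (32.1%), all toward liver, with a median of 0.50. Cdc20, an activator of mitotic exit, read 8.76, 8.80 and 8.52 against 7.86, 7.71 and 7.47 (1.01 ± 0.26), whereas Mki67 read 9.48, 9.51 and 9.50 against 9.05, 9.26 and 9.03 and did not pass (0.39 ± 0.31, adjusted p = 0.418). This count depended on the fit: it was 24 with the 6 arrays fitted alone, 20 with E14 groups alone and 15 with array weights, and fell to 5 without liver replicate 3 and 4 without kidney replicate 3.

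Genes of other liver cells were higher in the liver sample. Of 21 erythroid genes, 16 were higher in liver (76.2%, beside 12.2% of all genes) and 0 in kidney, with a median of 1.47. Slc4a1, the anion exchanger of the red cell membrane, read 7.38, 7.20 and 7.31 in liver and 2.65, 3.02 and 2.80 in kidney (adjusted p = 6.26e-15), and Rhag, a partner of the Rh proteins, read 5.43, 4.84 and 4.92 against 2.16, 2.16 and 2.56. Of 24 hepatocyte genes, 15 were higher in liver (62.5%) and 0 in kidney, with a median of 1.84. Alb, albumin, read 8.27, 8.32 and 7.86 against 2.43, 2.03 and 1.90 (adjusted p = 1.12e-18), and Afp, alpha-fetoprotein, 8.22, 8.42 and 7.82 against 2.50, 2.75 and 2.44. The mean level of the hepatocyte list ranged from 4.86 to 4.98 in liver and 2.77 to 2.85 in kidney, and that of the erythroid list from 4.74 to 5.22 and 2.99 to 3.30. Transcripts of red cells and hepatocytes were thus higher in the same arrays as those of granules and progenitors, and their part in the other liver results was not tested.

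Genes of other kidney cells were tested in the same way. Of 22 developing kidney epithelium genes, 3 were higher in kidney (13.6%, beside 10.6% of all genes), and this count was 1 without liver replicate 1, liver replicate 3 or kidney replicate 1, and 7 with array weights. Six2, of nephron progenitors, read 2.18, 2.22 and 2.14 in liver and 2.92, 2.39 and 2.90 in kidney (-0.56 ± 0.19, adjusted p = 0.0278), all below 3.041. Its call was lost with the 6 arrays fitted alone (adjusted p = 0.0683) and without any 1 array but kidney replicate 2 (adjusted p 0.0544 to 0.128). Pax2 (-0.82 ± 0.35, adjusted p = 0.0819) and Wt1 (-0.79 ± 0.31, adjusted p = 0.0558) did not pass, but both were called with the 6 arrays fitted alone (adjusted p = 0.0185 and 0.0446) and with array weights (0.0106 and 0.0146), and Wt1 also without liver replicate 1 (0.0457) or kidney replicate 3 (0.0362). Of 21 stromal genes, 5 were higher in kidney (23.8%, and 9 genes with array weights) and 1 in liver. Col1a2, a chain of type I collagen, read 2.02, 2.38 and 2.48 against 6.81, 5.28 and 5.62 (-3.61 ± 0.43), with the kidney cells highest of the 27 groups, and Col1a1, the other chain, read 2.22, 2.14 and 2.03 against 3.83, 3.27 and 3.69 (-1.47 ± 0.23), with the kidney cells ranking 2 of 27, while Col3a1 (-0.42) did not pass. Of 18 endothelial genes only Egfl7 was called (0.78 ± 0.26), and not without kidney replicate 3 (adjusted p = 0.254), liver replicate 2 (0.0983) or liver replicate 3 (0.0515), with the 6 arrays fitted alone (0.056) or after quantile normalization (0.0754).

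Lists of other blood lineages had at most 5 members called in a direction. Called members made up 38.5% of mast cell and basophil genes and 31.2% of T and NK cell genes, beside 22.8% of all genes, and 11.1% to 20.0% of megakaryocyte, eosinophil, B lineage and MHC class II and dendritic cell genes. The mean level of mast cell and basophil genes ranked 1 of 27 in liver and 2 in kidney. Of 13 tested, 3 were higher in liver, the basophil proteases Prss34 (2.70 ± 0.37) and Mcpt8 (1.93 ± 0.42) and the histamine-forming enzyme Hdc (1.27 ± 0.45), and 2 in kidney, Il4 and Fcer1a. Hdc lost its call without kidney replicate 3 (0.90, adjusted p = 0.225), liver replicate 1 (adjusted p = 0.0962) or liver replicate 2 (adjusted p = 0.0638), Il4 without any of 3 arrays (adjusted p 0.0672 to 0.0963), and Fcer1a without either of 2 (adjusted p 0.0508 and 0.0545). Of 16 T and NK cell genes, 5 were higher in liver, led by Gzma (3.07 ± 0.46), and 2 or 3 remained called when any 1 array was left out. That number was 3 after quantile normalization or median centring, and without the filter or the variance trend. Cd3e (0.14 ± 0.45) and Ncr1 (0.26 ± 0.46) did not pass. The counts were 1 toward liver and 2 toward kidney of 15 megakaryocyte genes, 1 and 0 of 9 eosinophil genes, and 1 and 1 of 12 B lineage genes. For MHC class II and dendritic cell genes they were 1 and 1 of 18, with H2-Aa at 0.65 ± 0.36. Glycolysis and hypoxia genes gave 4 each way of 19 (21.1%), beside 12.2% of all genes toward liver and 10.6% toward kidney. Integrin and adhesion genes gave 2 toward liver (8.7%) and 6 toward kidney (26.1%) of 23. In that list Icam1, a ligand of CD11b integrins, read 4.52, 4.51 and 4.12 in liver and 8.42, 8.79 and 8.68 in kidney (-4.25 ± 0.27). These small counts moved with single arrays. Without kidney replicate 3, no endothelial gene was called and 0 eosinophil genes were higher in liver and 2 in kidney. Without liver replicate 2 no endothelial gene was called higher in liver and no megakaryocyte gene higher in kidney, and without liver replicate 3 no mast cell or basophil gene was called higher in kidney. MHC class II and dendritic cell genes gave 6 toward liver with the 6 arrays fitted alone, 2 glycolysis genes were higher in liver without kidney replicate 2, and 1 integrin gene was higher in liver without liver replicate 1 or kidney replicate 3. Of 4 sex-linked genes 0 were called: Xist, transcribed from the inactive X, read 9.71, 5.92 and 8.82 in liver and 8.21, 9.74 and 3.28 in kidney, so both groups held arrays with high and with lower levels.

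**Figure D2:**
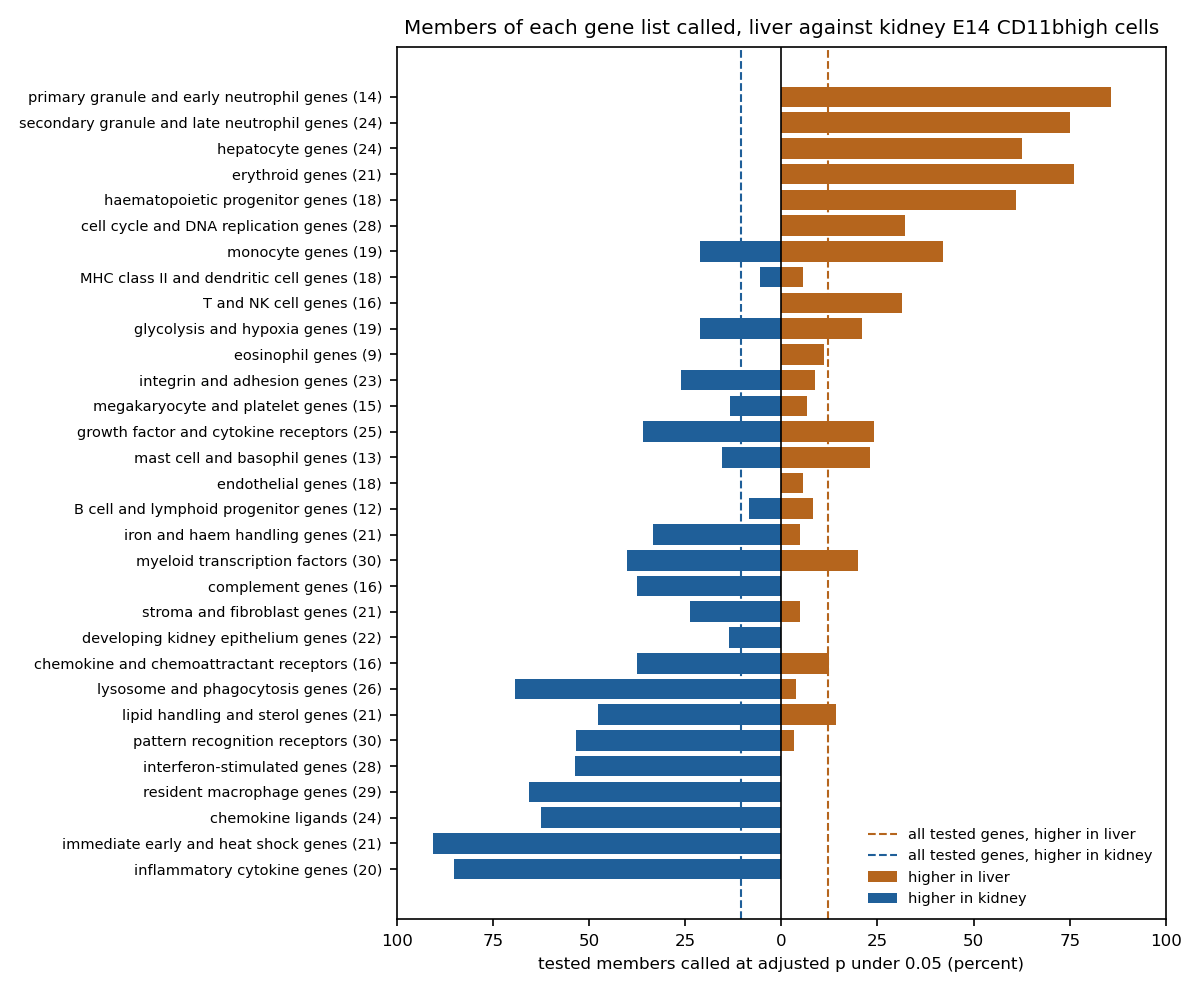
Percent of the tested members of each list except the sex-linked genes (number tested in brackets) called higher in liver (right) or higher in kidney (left) at an adjusted p under 0.05, ordered by median difference; dashed lines mark the same for all 17099 tested genes, 12.2% and 10.6%. The 2 granule lists and the erythroid, hepatocyte and progenitor lists reach 61.1% to 85.7% toward liver, and the immediate early and cytokine lists 90.5% and 85.0% toward kidney.

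The same organ comparison in CD11bhigh cells labelled Irf8KO addresses how far the differences depend on Irf8. Irf8 itself read 5.55, 5.19 and 6.43 in the liver arrays labelled Irf8KO and 8.55, 8.58 and 8.56 in the kidney arrays labelled Irf8KO. The liver arrays were below all wild-type arrays, and the kidney arrays were close to the wild-type range, which goes against their label. The labels do not say which part of the gene is deleted or read by the probe, so the samples are called by their labels and every direction drawn from them carries this limit. The limma test called 3136 genes (18.3%), 1675 higher in liver (9.8%) and 1461 higher in kidney (8.54%). The share of calls toward liver was 53.4%, and 43.3% after quantile normalization. Of the 2087 genes higher in wild-type liver, 823 were called the same way in the cells labelled Irf8KO (39.4% of the wild-type calls and 49.1% of theirs), and 603 of those higher in kidney (33.3% and 41.3%). The opposite call was made for 60 and 34. The count of 3136 was 1892 without the kidney replicate 3 labelled Irf8KO.

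The organ difference itself differed between the genotypes in 1426 genes (8.34%), further toward liver in wild type in 4.13% of all genes and further toward kidney in 4.2%. Among granule genes, 6 of 14 primary and 6 of 24 secondary members lay further toward liver in wild type. Ltf differed between the organs by 5.80 in wild type and 1.74 in cells labelled Irf8KO (difference 4.05 ± 0.92, adjusted p = 0.00194). Both organs labelled Irf8KO were high in such genes: the mean level of the secondary granule list was 9.45, 9.54 and 9.36 in their liver arrays and 9.03, 8.94 and 6.93 in their kidney arrays, beside 7.70, 8.02 and 8.10 in wild-type liver. In the immediate early and heat shock list 18 of 21 members had a difference further toward kidney in wild type. Jun gave -5.25 in wild type and -0.19 in cells labelled Irf8KO (difference -5.06 ± 0.37, adjusted p = 6.68e-16), and the list mean ranged from 6.85 to 7.16 in liver arrays labelled Irf8KO and from 7.87 to 8.24 in their kidney arrays, against 5.43 to 5.57 and 8.99 to 9.15 in wild type. Of 20 cytokine genes, 10 had a difference further toward kidney in wild type, and 13 were called toward kidney in cells labelled Irf8KO with a median of -1.60. Resident macrophage genes were called toward kidney in 14 of 29 in cells labelled Irf8KO, with a median of -1.02. In 8 of the 29 the difference lay further toward kidney in wild type and in 3 further toward liver. Mrc1 gave -5.62 in wild type and -2.46 in cells labelled Irf8KO (difference -3.17 ± 0.54, adjusted p = 3.21e-05), and C1qa -3.82 and -0.64 (difference -3.18 ± 0.43, adjusted p = 2.61e-07), while Maf gave -3.51 and -4.11. Kidney arrays labelled Irf8KO were unlike each other in such genes, with replicate 3, whose title has another form, nearest to wild-type kidney. They read 4.27, 5.44 and 7.85 for Mrc1 and 10.47, 10.24 and 7.15 for Ltf, beside wild-type kidney means of 8.94 and 4.04. The differences by genotype average over these arrays, and 1572 genes differed without this replicate 3. Erythroid and hepatocyte genes were called toward liver in 18 of 21 and 18 of 24 in cells labelled Irf8KO, and 1 and 0 of them differed between the genotypes.

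In the other gate, Kupffer cells against kidney F4/80high macrophages at E14, 3132 genes were called (18.3%), 1410 higher in liver (8.25%) and 1722 higher in kidney (10.1%). This count was 2054 without kidney replicate 1 and 2033 without kidney replicate 2. Of the genes higher in CD11bhigh liver cells, 469 were called the same way (22.5% of them and 33.3% of the calls in the other gate), and 799 of those higher in kidney (44.1% and 46.4%). The opposite call was made for 60 and 110. Array titles of the 2 gates repeat the same sample numbers within an organ, so cells of both gates may come from the same preparations. The 2 gates are therefore not known to be independent. Of the immediate early and heat shock list, 19 of 21 were higher in kidney here as well, with a median of -3.12: the list mean was 5.85, 5.86 and 5.85 in Kupffer cells and 8.95 and 8.79 in kidney F4/80high cells. Il1b differed by -6.01 and Cxcl2 by -6.92, beside -6.78 and -7.69 in the CD11bhigh gate. Kidney cells of both gates were thus high in these genes and liver cells of both gates low. Resident macrophage genes did not follow: 10 of 29 were higher in Kupffer cells and 4 in kidney cells, with a median of 0.06, and in 19 the difference lay further toward kidney in CD11bhigh cells. Mertk was -3.07 in CD11bhigh cells and 1.64 in the other gate, and C1qa -3.82 and 0.09. Erythroid genes were higher in Kupffer cells in 20 of 21 (median 4.24) and hepatocyte genes in 21 of 24 (median 4.50), above the medians of 1.47 and 1.84 in CD11bhigh cells; 15 of each list differed between the gates. The organ difference differed between the gates in 1823 genes (10.7%), further toward liver in CD11bhigh cells in 5.19% and further toward kidney in 5.47%. Primary granule genes were called toward liver in 8 of 14 in the other gate, with a median of 2.23 beside 2.77 in CD11bhigh cells, and 4 of the 14 lay further toward liver in CD11bhigh cells. Secondary granule genes were called toward liver in 5 of 24 there, with a median of 0.52, and 10 of the 24 lay further toward liver in CD11bhigh cells and 1 further toward kidney.

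**Figure D3:**
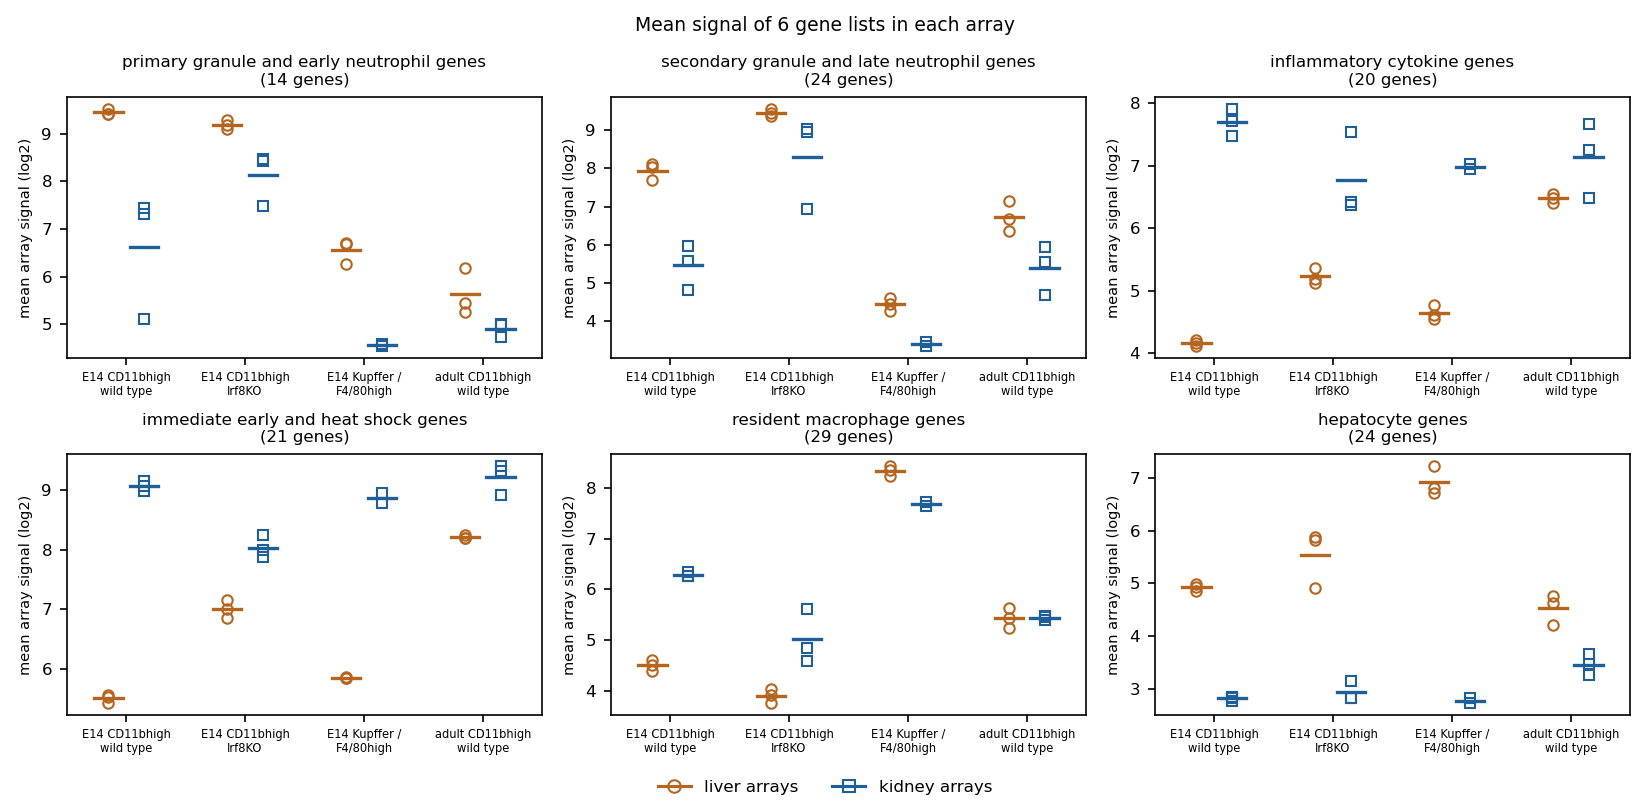
Mean array signal (log2) of 6 gene lists in each array of the 8 groups; circles are liver arrays, squares kidney arrays and bars group means, and kidney F4/80high cells have 2 arrays. The immediate early list separates liver from kidney by over 2 log2 units in wild-type E14 cells of both gates and by less in Irf8KO and adult cells.

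In adult CD11bhigh cells 2601 genes were called (15.2%), 1160 higher in liver (6.78%) and 1441 higher in kidney (8.43%). The share of calls toward liver was 44.6%, but 30.6% after quantile normalization and 63.6% after median centring, which moved the median of all genes from 0.036 to 0.15. Of the E14 calls, 261 of those toward liver (12.5%, and 22.5% of the adult calls) and 233 of those toward kidney (12.9% and 16.2%) were made the same way, and 114 and 101 the opposite way. The organ difference differed between the stages in 3107 genes (18.2%), further toward liver at E14 in 9.49% and further toward kidney in 8.68%; of these calls 52.2% were toward liver, and 39.0% after median centring, with a median of all genes of -0.153. Cytokine genes were called toward kidney in 9 of 20 in adults, with a median of -0.45, and 16 of the 20 had a difference further toward kidney at E14. Immediate early genes were called toward kidney in 13 of 21 with a median of -0.90. Adult liver cells were high in them too, with a list mean of 8.19, 8.24 and 8.20 against 8.92, 9.32 and 9.40 in adult kidney. Of the resident macrophage list 6 were higher in adult liver and 5 in adult kidney. Interferon-stimulated genes ran the other way, 9 of 28 higher in adult liver and 0 in adult kidney, and 22 differed between the stages. Ccl24 was -5.07 at E14 and 2.59 in adults, a difference of -7.66 ± 0.67 (adjusted p = 8.48e-14). Of 24 hepatocyte genes, 13 were higher in adult liver; Alb differed by 6.83, near its E14 value, while the fetal gene Afp did not pass (-0.47).

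**Figure D4:**
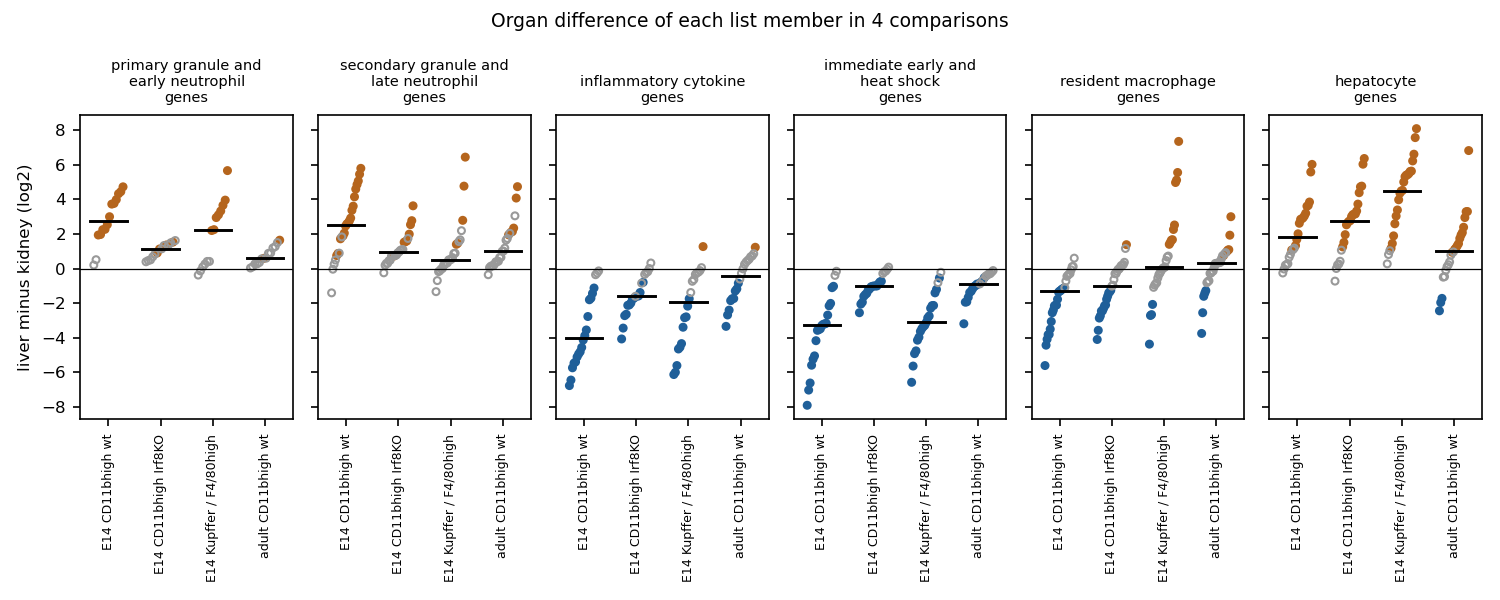
Liver minus kidney difference (log2) of each tested member of 6 lists in 4 comparisons; filled points passed an adjusted p of 0.05 (brown toward liver, blue toward kidney), open grey points did not, and bars are medians. Members of the immediate early list lie furthest below 0 in wild-type E14 cells of both gates, with medians of -3.30 and -3.12, against -1.01 in Irf8KO and -0.90 in adult cells.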

How the data were processed

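RNA of 81 arrays was measured on Affymetrix gene arrays, and 1 repeat run was averaged with its first run, which left 80 samples in 27 groups. The authors deposited a table of log2 signals. The submitters' processing notes name RMA and Affymetrix Expression Console, without versions or a genome build. RMA normalizes all arrays together and compresses differences of low signals. Of 41345 probes, 23521 had exactly 1 gene symbol in the platform annotation and 1814 several (left out), and 16010 were not listed there. The brightest probe stood for each of 22180 genes (1082 had more than 1). Genes above the 50th percentile of the table, 3.041, in at least 2 arrays were tested, 17099 in all. limma 3.58.1 in R 4.3.3 was fitted over all groups, with a trend of variance on intensity and Benjamini-Hochberg adjustment over all genes tested; calls are at an adjusted p of 0.05. On simulated data with 200 genes shifted among 17099, the wild-type liver minus kidney comparison recovered 62% of shifts of 1 log2 unit and 100% of shifts of 2. It made 11 false calls. The simulated noise of a gene was the same in every group, and far fewer genes were shifted than were called in the data. Recovery in the real arrays may therefore differ. The number of arrays limits the precision, and detection calls were not used. Named genes were Irf8, the gate genes, the 12 largest non-overlapping differences each way, the 5 members or fewer of each list that had the lowest adjusted p, markers that define a cell type, and the 3 largest differences of organ effects each way. Other list members, such as Tlr4, Spi1, Mmp9, Fos and Il6, were chosen after their values were seen. The 32 lists (582 different genes tested, 61 on more than 1 list) and the samples were chosen with earlier results of these data known. Replicate numbers come from the sample descriptions, or from the titles where the descriptions repeat a number. For kidney F4/80high arrays and E14 kidney CD11bhigh arrays labelled Irf8KO they differ from numbers in the titles. Deviations of same-numbered wild-type liver and kidney arrays correlated at 0.048, -0.008 and -0.015, so the numbers were not treated as pairs. The closing section gives the alternatives.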

Additional observations from a re-analysis of the deposited data

Results flagged for a closer look

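The organ difference of E14 CD11bhigh wild-type cells was set against the organ difference of each other pair of groups, and the difference between the organ differences was itself tested with limma. Genes named here were taken from those also called between liver and kidney in the wild-type E14 cells, a choice that favours large differences in those cells. Groups of 3 arrays are too small for a test of single outlying arrays.

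Against cells labelled Irf8KO, 1426 genes differed. Those furthest toward liver in wild type were the granule genes Ngp (4.41 ± 1.19), Lcn2 (4.16 ± 0.92) and Ltf (4.05 ± 0.92). Ngp did not pass without wild-type kidney replicate 3 (3.65, adjusted p = 0.0601). Furthest toward kidney were Hspa1b (-6.41 ± 0.73), Jun (-5.06 ± 0.37) and the microRNA gene Mir101c (-5.03 ± 0.73). Hspa1b read 6.56, 5.81 and 8.26 in the kidney arrays labelled Irf8KO, so its difference averages over unlike arrays. Mir101c read 1.77, 1.43 and 1.85 in wild-type liver and 5.96, 8.39 and 7.75 in wild-type kidney.

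Against the Kupffer cell and kidney F4/80high gate, 1823 genes differed. Ltf (4.91 ± 0.98), Chil1 (4.73 ± 0.68) and Chil3 (4.33 ± 1.04) lay further toward liver in CD11bhigh cells. The chemokine Ccl24 (-6.43 ± 0.71), Gm19765 (-6.02 ± 0.57) and the guanylate-binding protein Gbp8 (-5.54 ± 0.78) lay further toward kidney. Gbp8 differed by -2.66 in CD11bhigh cells and by 2.88 in the other gate, so its direction turned.

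Against adult CD11bhigh cells, 3107 genes differed. Spink1, a trypsin inhibitor, was 2.27 at E14 and -8.27 in adults (10.54 ± 0.91), and the carbonic anhydrase Car2 was 4.19 and -3.89 (8.09 ± 0.80). Afp gave 6.07 ± 0.73. Ccl24 (-7.66 ± 0.67), Hspa1b (-7.23 ± 0.73) and Hspa1a (-6.83 ± 0.61) lay further toward kidney at E14.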

How the results depend on the processing

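The main count of 3897 genes ranged from 3028 to 3418 when 1 array was left out and from 3544 to 5598 under the other alternatives; 113 of 120 alternatives of the counts stayed within 1.5 times. The exceptions were the difference by gate when fitted on the compared groups alone (3081) and with array weights (3220), the difference by genotype with array weights (2518), the adult comparison with array weights (1378), the Irf8KO pair without its kidney replicate 3 (1892; other left-out arrays up to 3012), and the other gate without kidney replicate 1 or 2 (2054 and 2033; other left-out arrays up to 2721). With the replicate number as a block, the count was 3840; the numbers do not pair the arrays, and Lat and Il2rb lost their calls. Of 170 named genes 147 were called, 126 of them under every alternative run (up to 16 a gene). Directions that turned were all in genes not called: Irf8 with every probe on its own (0.054), Tek without liver replicate 2 (-0.11) or kidney replicate 2 (-0.186, range to 0.262), Itga2b after quantile normalization (-0.047) or without liver replicate 1 (-0.104, range to 0.221), Gp9 without liver replicate 3 (0.191, range from -0.428) or kidney replicate 3 (0.005), and Ncr1 without kidney replicate 3 (-0.108, range to 0.534). For comparisons other than the wild-type E14 one, the alternatives in scaling, filter, trend, weights, probe and left-out arrays were chosen after seeing the data. The cause of these moves was not tested. Signals below the median of the table and 2 or 3 arrays a group limit what small differences can show.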
